A study of Mus musculus with 12 samples.

Results

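Granzymes are serine proteases that cytotoxic lymphocytes store in secretory granules and release onto a target cell. Perforin (Prf1) opens the target membrane to them, serglycin (Srgn) is the proteoglycan that packs them in the granule, and Fas ligand (Fasl) kills by a separate route, through the death receptor Fas. Intracellular serpins protect the producing cell, Serpinb9 being the inhibitor of granzyme B. Regulatory T cells (Treg) suppress other immune cells under the control of Foxp3, and they can use granzyme B and perforin to kill lymphocytes. The genes described here are 10 of the 20901 genes named on the arrays: Gzma, Gzmb, Gzmc, Gzmk, Gzmm, Prf1, Srgn, Fasl, Serpinb9 and Serpinb6b. They were chosen by name or older alias (Srgn is listed as Prg1), and each is represented by its brightest probe, judged by the mean of all 12 arrays.

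Agilent one-colour arrays, 12 in all, were hybridised with RNA of sorted mouse Treg, 3 for each of 4 groups. IL10+ and IL10- tumour Treg came from C57BL/6 mice carrying VERT-X, an EGFP reporter of Il10, and were taken as CD25+ CD120b+/low CD4 T cells. Total tumour Treg came from C57BL/6 mice carrying FoxP3-EGFP and were taken by EGFP, and spleen Treg were taken by EGFP from FoxP3-EGFP mice without a tumour. The tumours were MC38, a mouse colon carcinoma line grown under the skin for 2 weeks and pooled before the sort. All 4 groups shared the gate CD45+, CD11b-low, CD3+, CD4+. VERT-X and FoxP3-EGFP groups thus differ in reporter and in gate, and spleen differs from tumour in tissue and in the absence of a tumour, so these cannot be told apart. The labels count 3 experiments for each population, and p-values measure the spread between these samples.

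A level is log2 of the processed signal minus log2 of its 75th percentile on that array, and a difference is between group means on that scale. That percentile ranged from 92.3 to 606 signal units, lowest on IL10+ replicate 3 and highest on IL10+ replicate 1, and 42.1% to 65.2% of probes were well above background. The Foxp3 probe read 2.64 to 4.65 on the 6 VERT-X arrays and did not stand well above background on the 6 FoxP3-EGFP arrays. Spleen replicate 2 stood apart from the other spleen arrays: Ctla4, a Treg receptor, read -0.89 there and 3.12 and 3.29 on the others, and Il2ra was not well above background there. The differences of the 10 genes from spleen are therefore given with and without that array. The spleen arrays lay on 1 slide with total tumour replicate 3, and the IL10- arrays shared no slide and no scan day with the total tumour or spleen arrays. IL10- tumour Treg therefore cannot be told apart from slide and scan day in those comparisons. No IL10+ array shared a slide with the spleen arrays, and only IL10+ replicate 1 shared their scan day. All differences from spleen rest on total tumour replicate 3 with slide as a fixed block. Those of IL10+ and IL10- also rest on IL10+ replicate 1, as they do with scan day as a block. With slide as a fixed block the IL10- difference further rests on IL10+ replicate 2, the only other array on the slide of the IL10- arrays. In these bulk samples, fewer cells of a type and less RNA per cell cannot be told apart.

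The promoters of Gzmb, Gzmc and Gzma are shown because Gzmb and Gzmc had the largest differences from spleen among the 9 genes tested here, and Gzma, on another chromosome, had smaller ones. Each is the 250 bases before the gene start in RefSeq (GRCm38.p6), 5′ to 3′ on the gene's strand, which is the minus strand for all 3. The positions are chr14:56262335-56262584 for Gzmb, chr14:56234658-56234907 for Gzmc and chr13:113100982-113101231 for Gzma. Capitals mark matches, on either strand, to AP-1 (TGANTCA), Runx (TGTGGT, or ACCACA on the other strand) and CRE (TGACGTCA).
Gzmb: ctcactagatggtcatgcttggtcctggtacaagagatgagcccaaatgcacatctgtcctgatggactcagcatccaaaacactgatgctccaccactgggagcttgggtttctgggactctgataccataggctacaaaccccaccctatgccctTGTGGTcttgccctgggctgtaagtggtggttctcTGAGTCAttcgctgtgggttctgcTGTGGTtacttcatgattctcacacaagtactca
Gzmc: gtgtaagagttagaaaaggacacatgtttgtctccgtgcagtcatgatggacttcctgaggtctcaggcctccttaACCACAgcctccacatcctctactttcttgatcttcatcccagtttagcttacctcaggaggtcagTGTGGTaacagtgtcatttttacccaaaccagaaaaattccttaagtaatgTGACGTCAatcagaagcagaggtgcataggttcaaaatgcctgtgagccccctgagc
Gzma: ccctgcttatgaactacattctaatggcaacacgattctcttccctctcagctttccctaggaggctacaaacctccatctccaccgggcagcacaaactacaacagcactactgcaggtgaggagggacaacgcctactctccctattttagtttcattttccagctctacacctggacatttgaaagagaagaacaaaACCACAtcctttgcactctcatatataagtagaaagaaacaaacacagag
The Gzmb window held 1 AP-1 match, starting 58 bases before the gene, and 2 Runx matches, starting 93 and 34 bases before it. The Gzmc window held 2 Runx matches, starting 174 and 108 bases before the gene, and 1 CRE match at 57 bases. The Gzma window held 1 Runx match at 50 bases. No match overlapped another in these windows. Of 32851 RefSeq windows of this length, 6.75% held AP-1, 14.0% held Runx, 1.27% held Runx at least 2 times and 1.55% held CRE. A match describes the letters and is not a measured site.

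Tumour Treg of every group had more Gzmb and Gzmc RNA than spleen Treg, by factors of 12.0 to 137. Serpinb9 and Serpinb6b also rose in every tumour group, by less, and Srgn rose in total and IL10+ tumour Treg. These smaller rises depended on the processing, as given below, and that of Serpinb9 was seen with 1 of its 2 probes. In total tumour against spleen Treg, 5 of 9 tested genes rose and none fell (Gzmb, Gzmc, Srgn, Serpinb9, Serpinb6b), where 42.3% of all 15541 tested features passed in either direction and 22.0% rose. In IL10+ tumour against spleen Treg, 6 of 9 rose, the same 5 and Gzma, where 50.9% of features passed and 23.9% rose. In IL10- tumour against spleen Treg, 4 of 9 rose, Gzmb, Gzmc, Serpinb9 and Serpinb6b, where 49.0% passed and 24.3% rose. Of all features, 20.3%, 26.9% and 24.7% fell in total tumour, IL10+ and IL10- against spleen. A gene passed at an adjusted p under 0.05 in limma with Benjamini-Hochberg adjustment over all features. Gzmk was below the filter, which asked for a probe well above background on at least 3 arrays. Counted in either direction, 4 of 9 for IL10- lay near the background, and 5 of 9 and 6 of 9 for total tumour and IL10+ little above it. Arrays of total tumour and spleen Treg did not overlap for 5 genes with tumour above and 1 below, where 32.4% and 33.4% of features did so. For IL10+ against spleen these were 5 above and none below (26.9% and 30.9% of features), and for IL10- against spleen 5 above and 1 below (30.1% and 31.3%). The median difference over the 9 tested genes was 0.96 for total tumour, 0.83 for IL10+ and 0.78 for IL10- against spleen, beside -0.01, -0.06 and 0.00 over all features. The 3 comparisons share the spleen arrays, so they are set side by side and are not independent of each other.

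**Figure D1:**
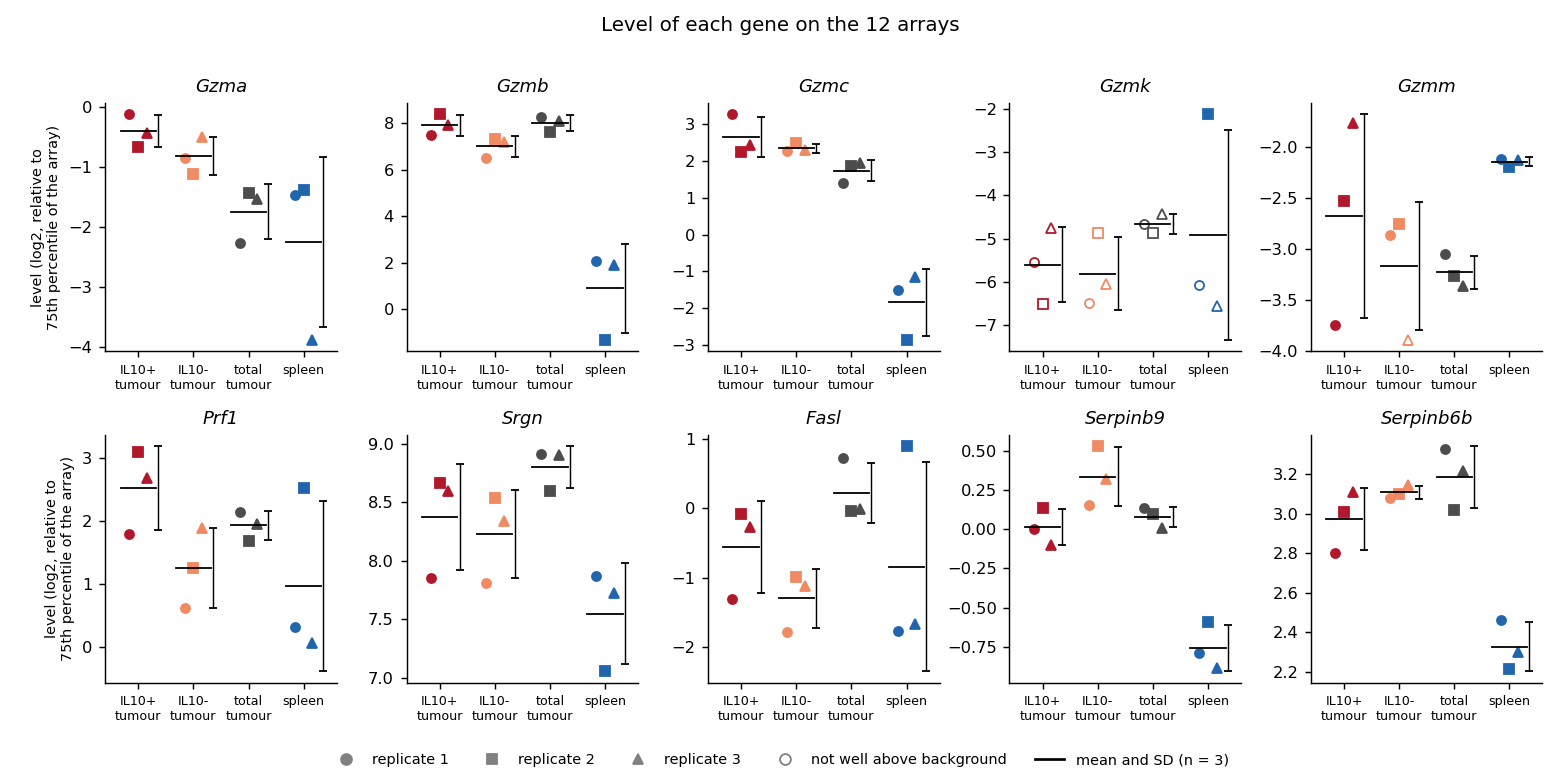
Level of each of the 10 genes (log2, scaled to each array's 75th percentile; each panel has its own axis) on the 12 arrays, by group from IL10+ tumour to spleen Treg, with the mean (line) and SD (bar, n = 3). Gzmb, Gzmc, Serpinb9 and Serpinb6b lie higher on all 9 tumour arrays than on the 3 spleen arrays, and open symbols are not well above background.

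Gzmb, granzyme B, which cleaves caspases and their substrates after aspartate, read 7.47, 8.37 and 7.90 in IL10+ tumour Treg, 6.48, 7.32 and 7.19 in IL10- tumour Treg and 8.27, 7.63 and 8.09 in total tumour Treg, against 2.09, -1.31 and 1.92 in spleen Treg. Every tumour array lay above every spleen array by more than 4 log2 units, and spleen replicate 2 was the lowest. The difference was 7.10 ± 0.76 (SE) for total tumour against spleen (137-fold, limma adjusted p = 7.8e-05), 7.02 ± 0.76 for IL10+ (129.7-fold, adjusted p = 5.61e-05) and 6.10 ± 0.76 for IL10- (68.7-fold, adjusted p = 0.000148). Without spleen replicate 2 these were 5.99, 5.91 and 4.996, all passing. On the slide that held total tumour replicate 3 and the spleen arrays, the first difference was 7.19. With slide as a fixed block the IL10+ difference was 6.71 and the IL10- difference 5.34, neither passing, and both rest there on single arrays. The order of the means was total, IL10+, IL10- and spleen, where the IL10- arrays lay below all IL10+ and total tumour arrays but no pair of tumour groups passed the test. The probe lies on chromosome 14 at 55213150 to 55213209 (mm8) and was not saturated on any array.

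Gzmc, a granzyme of the same mouse gene cluster as Gzmb, read 3.27, 2.26 and 2.43 in IL10+, 2.27, 2.49 and 2.30 in IL10- and 1.41, 1.88 and 1.94 in total tumour Treg, against -1.51, -2.86 and -1.16 in spleen Treg. All tumour arrays again lay above all spleen arrays, with spleen replicate 2 lowest. The difference was 3.59 ± 0.41 for total tumour (12.0-fold, limma adjusted p = 0.000131), 4.50 ± 0.41 for IL10+ (22.6-fold, adjusted p = 2.22e-05) and 4.19 ± 0.41 for IL10- (18.3-fold, adjusted p = 3.99e-05). It passed under all 24 alternatives in each of these comparisons, at 2.53 to 3.93, 2.60 to 5.41 and 3.26 to 5.496, and was 3.07, 3.99 and 3.68 without spleen replicate 2. IL10+ was highest, then IL10-, total and spleen, and among the tumour groups no pair passed the test. Its probe lies on chromosome 14 at 55186329 to 55186388 (mm8).

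Gzma, granzyme A, a tryptase that cuts after basic residues, read -0.12, -0.66 and -0.43 in IL10+, -0.84, -1.12 and -0.50 in IL10- and -2.28, -1.43 and -1.53 in total tumour Treg, against -1.47, -1.39 and -3.89 in spleen Treg. Both VERT-X groups lay above all spleen arrays, while total tumour overlapped spleen, where replicate 3 was far below the other arrays. The IL10+ difference from spleen, 1.85 ± 0.58, passed (limma adjusted p = 0.0221). The IL10- difference, 1.43 ± 0.58, did not (adjusted p = 0.0629), nor did that of total tumour, 0.51 (95% interval -0.78 to 1.79, adjusted p = 0.519). Without spleen replicate 3 the last was -0.31, and without spleen replicate 2 the IL10- difference passed at 1.86 (adjusted p = 0.0332). The IL10+ call was lost on the compared arrays alone (adjusted p = 0.0823) and without IL10+ replicate 1 (1.71, adjusted p = 0.0593). It was also lost with slide as a fixed block (2.45) and scan day as a block (2.13), which rest on single arrays. The probe lies on chromosome 13 at 114216656 to 114216715 (mm8).

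Gzmm, a granzyme that prefers to cut after methionine or leucine, was the tested granzyme whose means were lower in each tumour group than in spleen. It read -3.74, -2.53 and -1.77 in IL10+, -2.86, -2.76 and -3.89 in IL10- (the last not well above background) and -3.05, -3.27 and -3.37 in total tumour Treg, against -2.12, -2.20 and -2.13 in spleen Treg. Total and IL10- tumour arrays lay below all spleen arrays, and IL10+ arrays lay on both sides. Total tumour differed by -1.08 (95% interval -2.08 to -0.08, limma adjusted p = 0.0766), IL10- by -1.02 (-2.02 to -0.02, adjusted p = 0.0834) and IL10+ by -0.53 (-1.53 to 0.46, adjusted p = 0.343), and none passed. The total tumour difference did pass with quantile normalization (-1.10, adjusted p = 0.0381) and with the authors' value table (-1.11, adjusted p = 0.0346), as did the IL10- difference (-1.27, adjusted p = 0.0174, and -1.29, adjusted p = 0.0152). With scan day as a block the total tumour difference passed at -1.08. The IL10- and IL10+ differences were -2.62 and -1.60 there, and both rest on IL10+ replicate 1. With normexp the differences of total tumour, IL10- and IL10+ were -0.017 (adjusted p = 0.993), -0.10 (adjusted p = 0.955) and 0.63 (adjusted p = 0.414). Of 24 alternatives, 6 passed for total tumour, 6 for IL10- and 1 for IL10+, the last 2 counts including the scan day block. With spleen replicate 2 left out, the differences were -1.11, -1.05 and -0.56, none passing. Gzmk, a tryptase of memory and effector T cells, was well above background on 1 of 12 arrays, spleen replicate 2, at -2.13, and was not tested.

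**Figure D2:**
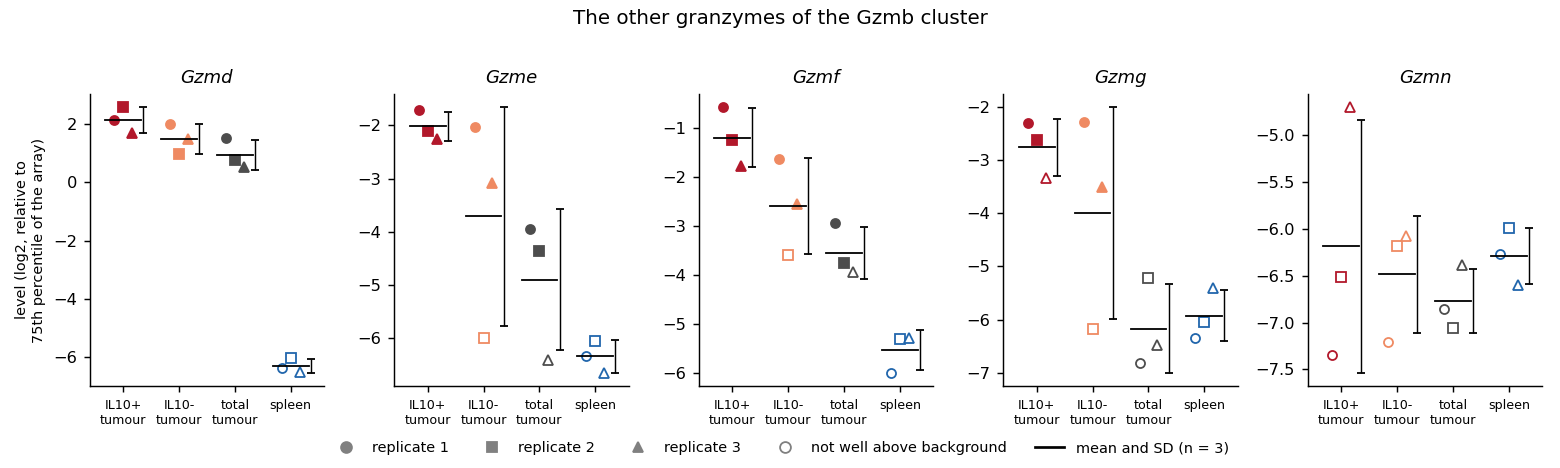
Level of the other 5 granzyme genes of the Gzmb cluster (log2, scaled to each array's 75th percentile) on the 12 arrays, from IL10+ tumour to spleen Treg, with mean and SD (n = 3). Gzmd is well above background on all 9 tumour arrays and on no spleen array, Gzmn on none.

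The other granzyme genes of the same mouse cluster, Gzmd to Gzmg and Gzmn, are close copies of Gzmc, so a probe may read RNA of more than 1 of them. Gzmd read 2.13, 2.58 and 1.70 in IL10+, 2.01, 0.97 and 1.497 in IL10- and 1.53, 0.76 and 0.54 in total tumour Treg and was not well above background on any spleen array. Against the lowest signal well above background there, Gzmd was at least 72.9-fold higher in IL10+ (limma adjusted p = 3.11e-07), at least 46.6-fold higher in IL10- (adjusted p = 5.36e-07) and at least 31.8-fold higher in total tumour Treg (adjusted p = 1.1e-06). Such a bound sets the mean of the brighter group against, for each dim array, the higher of that lowest signal and the probe's own. Gzmf was at least 7.25-fold higher in IL10+ (adjusted p = 8.71e-05), at least 2.76-fold in IL10- (adjusted p = 0.000973; well above background on 2 arrays) and at least 1.43-fold in total tumour Treg (adjusted p = 0.0102; on 2 arrays) than in spleen Treg. Gzme passed for IL10+ (at least 4.08-fold, adjusted p = 0.0031) and IL10- (at least 1.27-fold, adjusted p = 0.0361) and not for total tumour (adjusted p = 0.235). Gzmg was detected on 2 IL10+ and 2 IL10- arrays and no total tumour or spleen array, and passed for IL10+ against spleen (at least 2.45-fold, adjusted p = 0.0102). Gzmd to Gzmg were well above background on no spleen array and met the filter through tumour arrays alone, so their p-values against spleen are conditioned on a high tumour level. In the fit that lacked spleen replicate 2, Gzme did not pass for IL10- (adjusted p = 0.0640). The means of all 4 were ordered IL10+, then IL10-, with total tumour and spleen lower, but no pair of tumour groups passed for any of them. For IL10+ against total tumour the adjusted p was 0.0884 for Gzmf and 0.109 for Gzmg.

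Prf1, perforin, read 1.79, 3.09 and 2.68 in IL10+, 0.61, 1.25 and 1.89 in IL10- and 2.13, 1.68 and 1.95 in total tumour Treg, against 0.31, 2.51 and 0.06 in spleen Treg. Spleen replicate 2 lay above all IL10- and total tumour arrays, and the other spleen arrays lay below every tumour array, so each tumour group overlapped spleen. None of the differences from spleen passed: 1.56 for IL10+ (95% interval 0.19 to 2.93, limma adjusted p = 0.0564), 0.29 for IL10- (-1.08 to 1.66, adjusted p = 0.718) and 0.96 for total tumour (-0.40 to 2.33, adjusted p = 0.237). Without spleen replicate 2 Prf1 rose by 2.34 in IL10+ (adjusted p = 0.00237) and by 1.74 in total tumour (adjusted p = 0.0130), and the IL10- difference was 1.07 (adjusted p = 0.0738). The probe lies on chromosome 10 at 60699137 to 60699196 (mm8).

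Srgn, serglycin, read 7.85, 8.67 and 8.60 in IL10+, 7.81, 8.54 and 8.34 in IL10- and 8.91, 8.60 and 8.90 in total tumour Treg, against 7.87, 7.05 and 7.72 in spleen Treg. Total tumour arrays lay above all spleen arrays, whereas replicate 1 of IL10+ and of IL10- lay within the spleen range. Srgn rose by 1.26 ± 0.29 in total tumour (limma adjusted p = 0.00692) and by 0.83 ± 0.29 in IL10+ Treg (adjusted p = 0.0384), while the IL10- difference was 0.68 (0.03 to 1.34, adjusted p = 0.0789). The IL10+ call was kept under 9 of 24 alternatives. With spleen replicate 2 left out, that difference was 0.58 (adjusted p = 0.137), and normexp background correction turned it to -0.40. The total tumour difference was 1.35 on the slide shared with spleen and 1.01 without spleen replicate 2. It did not pass with normexp (1.06, adjusted p = 0.217) or with slide as a fixed block, where it rests on total tumour replicate 3.

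Fasl, the ligand of Fas, was read by 10 spots of 1 probe, whose SD on an array was 0.07 to 0.15 log2 units. It read -1.31, -0.08 and -0.26 in IL10+, -1.78, -0.99 and -1.12 in IL10- and 0.73, -0.03 and -0.01 in total tumour Treg, against -1.76, 0.90 and -1.66 in spleen Treg. Spleen replicate 2 had the highest level of all 12 arrays, so every tumour group overlapped spleen, while the total tumour arrays lay above all IL10+ and IL10- arrays. The differences from spleen were 1.07 for total tumour (95% interval -0.38 to 2.52, limma adjusted p = 0.217), 0.29 for IL10+ (-1.16 to 1.74, adjusted p = 0.733) and -0.45 for IL10- (-1.91 to 0.998, adjusted p = 0.586). In the fit that lacked spleen replicate 2, Fasl rose by 1.94 in total tumour (adjusted p = 0.00615) and by 1.16 in IL10+ (adjusted p = 0.0441), and the IL10- difference was 0.42 (adjusted p = 0.434). The other Fasl probe gave 0.89 for total tumour, -0.28 for IL10+ and -0.89 for IL10- against spleen with all arrays, none passing.

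Serpinb9, the inhibitor of granzyme B, read 0.00, 0.13 and -0.10 in IL10+, 0.16, 0.53 and 0.32 in IL10- and 0.14, 0.10 and 0.01 in total tumour Treg, against -0.79, -0.59 and -0.89 in spleen Treg. All tumour arrays lay above all spleen arrays. Serpinb9 rose by 0.84 ± 0.14 in total tumour (1.79-fold, limma adjusted p = 0.00129), by 0.77 ± 0.14 in IL10+ (1.71-fold, adjusted p = 0.00156) and by 1.09 ± 0.14 in IL10- (2.14-fold, adjusted p = 0.000211). The other Serpinb9 probe did not move with it: its differences from spleen were -0.03, -0.10 and 0.18, with adjusted p of 0.946, 0.775 and 0.612. The probes lie on chromosome 13, at 33023525 to 33023584 and 33024967 to 33025026 (mm8). The rise of Serpinb9 therefore rests on 1 of 2 probes. Without spleen replicate 2 the differences of the first probe were 0.92, 0.85 and 1.18 for total tumour, IL10+ and IL10-, all passing. With normexp the total tumour difference was 0.62 (adjusted p = 0.0851) and the IL10+ difference 0.54 (adjusted p = 0.0678). With slide as a fixed block the IL10+ and IL10- calls, which rest there on single arrays, were lost (0.66 and 0.86).

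Serpinb6b, a related intracellular serpin, read 2.80, 3.01 and 3.11 in IL10+, 3.08, 3.099 and 3.14 in IL10- and 3.33, 3.02 and 3.22 in total tumour Treg, against 2.46, 2.22 and 2.30 in spleen Treg. All tumour arrays lay above all spleen arrays, while the tumour groups overlapped each other. It rose by 0.86 ± 0.14 in total tumour (limma adjusted p = 0.000943), by 0.65 ± 0.14 in IL10+ (adjusted p = 0.00352) and by 0.78 ± 0.14 in IL10- (adjusted p = 0.00128). On the slide shared with spleen the total tumour difference was 0.89. With spleen replicate 2 left out, the differences were 0.81, 0.59 and 0.73 for total tumour, IL10+ and IL10-, all passing. Normexp background correction ended all 3 calls, with differences of 0.50, -0.63 and 0.53 in the same order, and so turned the direction in IL10+. Scan day as a block ended the IL10+ and IL10- calls (0.47 and 0.52), as did slide as a fixed block, and both blocks rest there on single arrays.

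**Figure D3:**
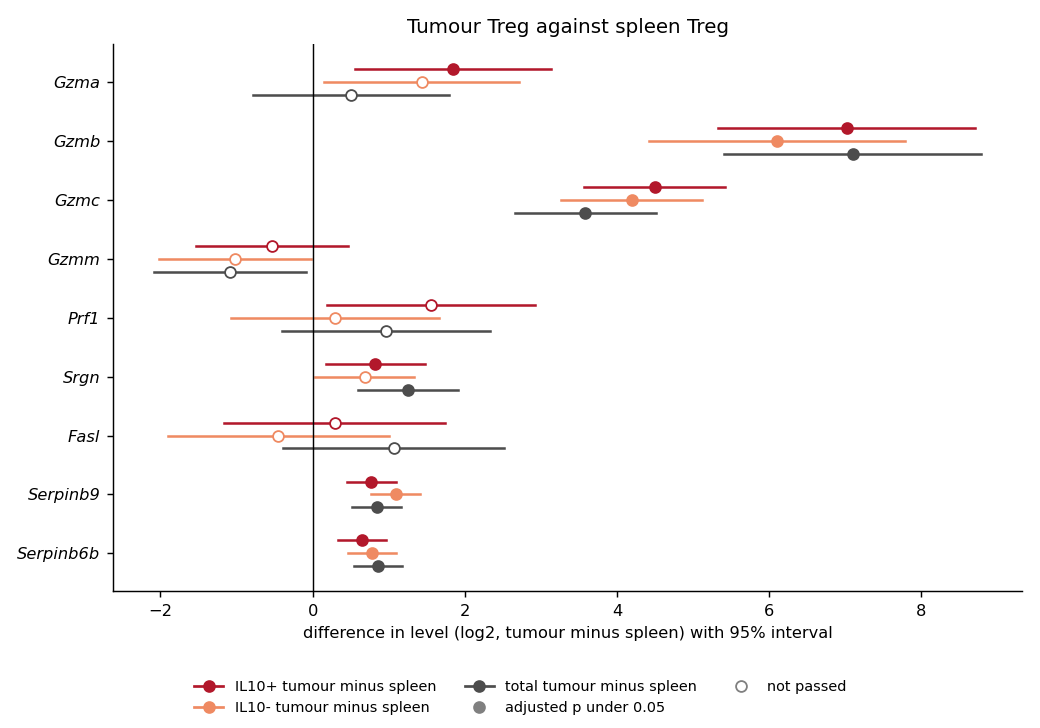
Difference in level (log2, tumour minus spleen) of the 9 tested genes for IL10+, IL10- and total tumour Treg, with the 95% interval from limma; filled points passed at an adjusted p under 0.05. Gzmb and Gzmc lie furthest right, and intervals of Prf1 and Fasl are among the widest.

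Spleen replicate 2 decided several of these results, and markers of other cells moved with it. Of the spleen arrays it had the highest Prf1 and Fasl, the only Gzmk well above background, and the lowest Gzmb, Gzmc and Srgn. Klrd1, an NK cell receptor, read 3.24 there and 1.35 and 0.12 on the other spleen arrays, and Xcl1, a chemokine of NK and CD8 T cells, read 3.03 there and -0.20 and -1.34 on the others. The summed signal of 12 CD8 T cell and NK cell markers, in multiples of the 75th percentile, was 89.5 there and 61.0 and 36.5 on the others, and that of 8 Treg markers was 48.1 there and 262 and 258 on the others. Most of the Treg sum was Tnfrsf18 and Tnfrsf4, which with Il2ra, Ctla4 and Ikzf2 were lowest there. Cd4 and Cd3e of the same list went the other way. Cd4 read 1.49 there and 0.57 and 0.69 on the others, and Cd3e 3.42 there and 3.24 and 3.16. Cd8a read 0.10 there and 0.78 and 0.00 on the others. The fibroblast sum was 3.05 there and 0.29 and 0.34 on the others, and the B cell sum 97.3 there and 221 and 154. The macrophage and monocyte sum, 57.0 there, lay between the 85.3 and 34.6 of the others. The part of other cells in its levels was not tested. Without it, 7 of 9 genes rose in total tumour (the 5 above with Prf1 and Fasl), 7 in IL10+ (Gzma, Gzmb, Gzmc, Prf1, Fasl, Serpinb9, Serpinb6b) and 5 in IL10- tumour against spleen Treg (Gzma, Gzmb, Gzmc, Serpinb9, Serpinb6b), and none fell. Of all features in that fit, 18.8% rose and 16.2% fell in total tumour, 21.5% rose and 23.2% fell in IL10+, and 21.7% rose and 21.0% fell in IL10-.

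**Figure D4:**
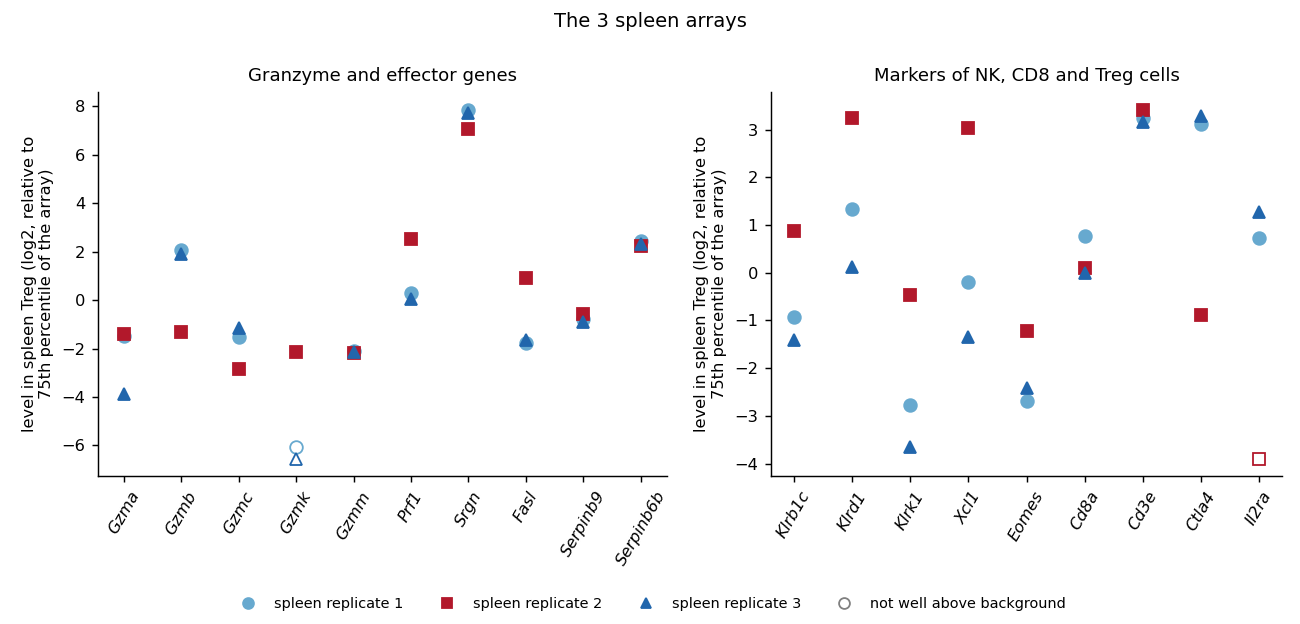
Level (log2, scaled to each array's 75th percentile) of the 10 genes and of 9 marker genes on the 3 spleen arrays; open symbols are not well above background. Replicate 2 (squares) is high for Prf1, Fasl, Klrd1 and Xcl1 and low for Gzmb, Gzmc, Ctla4 and Il2ra.

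Between IL10+ and IL10- tumour Treg, the comparison that asks what sets apart tumour Treg expressing interleukin-10, none of the 9 tested genes passed limma's test, where 0.0515% of all features did, and 1, Serpinb9, had an unadjusted p under 0.05, as 4.61% of features did. Gzmb was higher on every IL10+ array than on every IL10- array, by 0.92 on average (95% interval -0.77 to 2.60, limma adjusted p = 0.9999). Of all features, 1.81% showed such a separation with IL10+ above. Serpinb9 was lower on every IL10+ array (-0.32, interval -0.65 to -0.0017), as 5.58% of features were. The Prf1 difference was 1.27 (interval -0.10 to 2.64), with IL10+ replicate 1 below IL10- replicate 3. Fasl was 0.74 higher (-0.71 to 2.19), Gzmm 0.49 (-0.51 to 1.49), Gzma 0.41 (-0.87 to 1.70), Gzmc 0.30 (-0.62 to 1.23) and Srgn 0.14 (-0.51 to 0.80), and Serpinb6b differed by -0.14 (-0.45 to 0.18), all with overlap. Means were thus higher in IL10+ for 7 of 9 genes, with a median of 0.41 beside -0.04 over all features. The intervals for Gzmb and Prf1 reach past a 4-fold difference, a size this unpaired fit of 12 arrays, 3 a group, could not resolve. They rest on a spread shared by all 4 groups, to which the spleen arrays add. The SD of Gzmb was 1.92 in spleen and 0.45 in both IL10+ and IL10-, and that of Prf1 was 1.35, 0.67 and 0.64. Without spleen replicate 2 these differences were unchanged (limma adjusted p = 0.695 for Gzmb and 0.611 for Prf1), and none of the 9 genes passed. On the slide that held IL10+ replicate 2 and the 3 IL10- arrays, the difference was 1.38 for Gzmb and 1.84 for Prf1. Normexp turned Gzmb to -0.29, Gzmc to -0.66 and Srgn to -1.15. The summed signal of CD8 and NK markers was 116 to 198 in IL10+ and 71.9 to 117 in IL10- Treg, with none of the 12 at background on all arrays of either group. Most of that sum was Nkg7 (mean 6.71 in IL10+ and 5.91 in IL10-) and Tyrobp (5.19 and 4.64). Cd8a, Cd8b1 and Xcl1 had lower means in IL10+ than in IL10-, the other markers higher ones, and none of the 12 passed. The part of such cells in these differences was not tested.

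**Figure D5:**
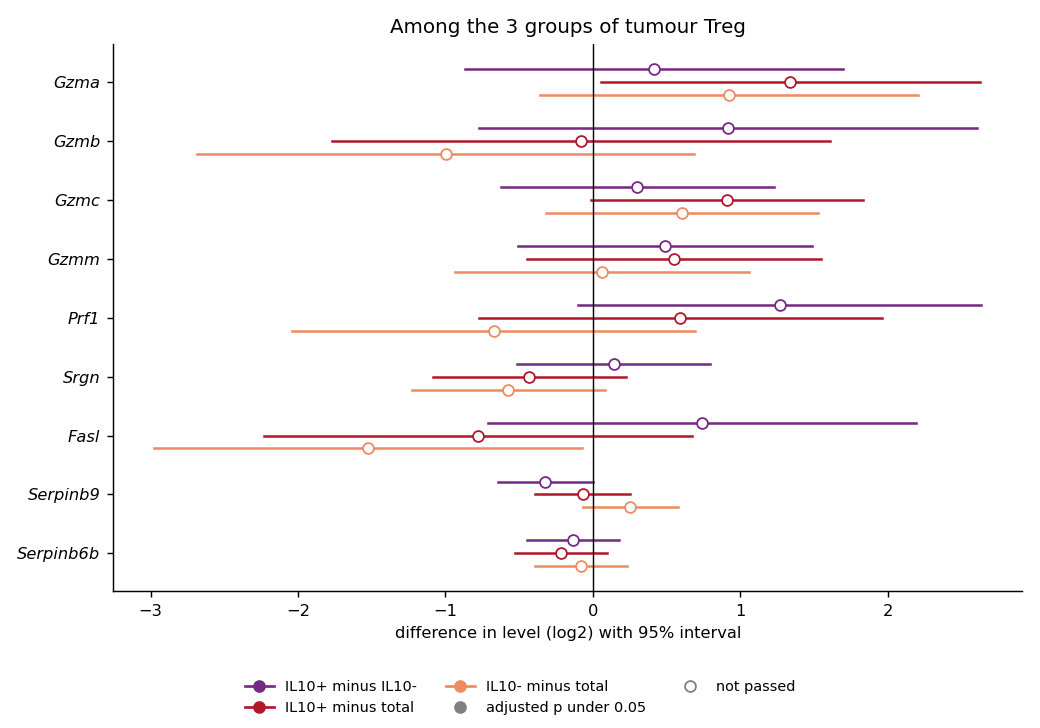
Difference in level (log2) of the 9 tested genes among the groups of tumour Treg (IL10+ minus IL10-, IL10+ minus total, IL10- minus total), with the 95% interval from limma. No point is filled, since none passed at an adjusted p under 0.05.

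Against total tumour Treg, none of the 9 genes passed in IL10+ (0.199% of features did) or in IL10- tumour Treg (0.0515% did), and 1 gene in each had an unadjusted p under 0.05, as 16.8% and 15.5% of features did. In IL10+ that gene was Gzma, at 1.34 (95% interval 0.06 to 2.62, limma adjusted p = 0.277), with all IL10+ arrays above all total tumour arrays. Gzmc was separated in the same direction in IL10+, at 0.91 (-0.01 to 1.83), and Fasl in the other, at -0.78 (-2.23 to 0.67). Of all features, 8.25% separated with IL10+ above total and 14.9% below. In IL10- that gene was Fasl, at -1.52 (-2.97 to -0.07, adjusted p = 0.301). Its SD was 1.51 in spleen, 0.42 in IL10- and 0.43 in total tumour, and the fit shares 1 spread among them. Without spleen replicate 2 the Fasl difference was unchanged (limma adjusted p = 0.104). None of the 9 genes passed in either comparison without that array. Gzma, Gzmc and Serpinb9 lay higher on every IL10- array than on every total tumour array, and Gzmb, Fasl and Srgn lower, where 12.7% and 15.0% of features did. The IL10- difference of Gzmb was -0.997 (-2.68 to 0.69). Both comparisons share the total tumour arrays and set a CD25 and CD120b gate against an EGFP gate.

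Genes of the same pathways were described from lists chosen with earlier results of these data known. Of 14 genes of granule exocytosis, 5 rose and 1 fell in total tumour against spleen Treg, 6 rose and 2 fell in IL10+, and 6 rose and 1 fell in IL10-, beside the 22.0%, 23.9% and 24.3% of all features that rose and the 20.3%, 26.9% and 24.7% that fell. Cd63, a tetraspanin of lysosome-related granules, rose by 7.42 ± 0.67 in total tumour (limma adjusted p = 3.04e-05), Lamp2, a lysosomal membrane protein, by 1.48 (adjusted p = 0.000335) and Vamp7, a vesicle fusion protein, by 0.82 (adjusted p = 0.00744). Cd63 is also abundant in macrophages and fibroblasts. Of 10 granule proteins and processing factors, 5 rose and none fell in total tumour, and 7 rose and 1 fell in each of IL10+ and IL10-. Among them the lysosomal proteases Ctsl and Ctsb rose by 3.45 (adjusted p = 0.00055) and 1.04 (adjusted p = 0.000421) in total tumour, and Nkg7, a granule membrane protein of cytotoxic cells, by 2.66 (adjusted p = 0.000742). In the fit that lacked spleen replicate 2, the exocytosis counts in total tumour were 4 higher and none lower, and those of granule proteins 6 and 1, where 18.8% of features rose and 16.2% fell.

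Partners of the Fas and related death receptor routes moved in both directions. Of 10, 3 rose and 3 fell in total tumour, 3 rose and 5 fell in IL10+ and 3 rose and 4 fell in IL10- against spleen Treg. Of all features 22.0%, 23.9% and 24.3% rose and 20.3%, 26.9% and 24.7% fell in these comparisons, so 3 of 10 higher lies near the background. In total tumour Tnfrsf10b, the mouse TRAIL receptor, rose by 3.45 (limma adjusted p = 2.56e-05), while Fas itself fell by 1.15 (adjusted p = 0.000457). Of 14 other clade B serpins 6 were tested, of which 3 rose and 1 fell in each comparison with spleen. Serpinb6a rose by 1.47 (adjusted p = 0.0044) and Serpinb1a, an inhibitor of neutrophil proteases, fell by 1.47 (adjusted p = 0.00106) in total tumour. Serpinb8 was well above background on 1 total tumour array and no spleen array, at least 1.02-fold higher (adjusted p = 0.000491), and met the filter through tumour arrays alone. So did Serpinb2, well above background on 3 total tumour arrays and no spleen array (at least 4.57-fold higher, limma adjusted p = 0.0434). The rises of Serpinb8 and Serpinb2 are thus conditioned on a high tumour level. Of 8 transcription factors of cytotoxic lymphocytes, 4 rose and 2 fell in total tumour, and 3 rose and 1 fell in each of IL10+ and IL10-. Zeb2 rose by 2.56 (adjusted p = 0.000201), and Prdm1 and Id2 by 2.03 each (adjusted p = 0.00503 and 0.00518), or by 1.38 and 2.66 without spleen replicate 2. For these 8 factors too the shares of all features were those given above. Without spleen replicate 2 the total tumour counts were 3 and 1 for death receptor partners, 2 and 1 for serpins and 4 and 1 for transcription factors, beside 18.8% and 16.2% of all features.

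No gene of these lists passed between IL10+ and IL10- tumour Treg. The smallest unadjusted p in each list belonged to Gzmf (1.39, limma adjusted p = 0.980), Stx11 (-0.72), Ctsb (0.33), Fas (-0.64, adjusted p = 0.587), Serpinb6c (0.31) and Stat5a (-0.85, adjusted p = 0.711). The next were Gzmd (0.64), Rab27a (-0.42), Ctsw (-0.80), Lta (-1.74, adjusted p = 0.711), Serpinb8 (0.17) and Stat5b (-0.33).

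Markers of other cells that make granzymes or serpins were read beside these results. Of 12 CD8 T cell and NK cell markers, 3 rose (Nkg7, Klra1 and Klrc1) and 4 fell in total tumour against spleen Treg. Of all features 22.0% rose and 20.3% fell there, so 3 of 12 higher lies near the background. Cd8a fell by 1.75 (limma adjusted p = 0.0271), Cd8b1 fell by 1.11 (adjusted p = 0.0119), the NK cell receptor Klrb1c fell by 2.96 (adjusted p = 0.000962, and -2.28 without spleen replicate 2) and Eomes fell by 1.69 (adjusted p = 0.0427). Without spleen replicate 2, 5 rose (with Klrk1 by 1.19 and Xcl1 by 1.89 added) and 2 fell, since Cd8a (-1.85, adjusted p = 0.0521) and Eomes (-1.25, adjusted p = 0.147) did not pass. In that fit 18.8% of all features rose and 16.2% fell. The summed signal of this list was 116 to 198 in IL10+, 71.9 to 117 in IL10- and 155 to 167 in total tumour, against 36.5 to 89.5 in spleen Treg. Most of it was Nkg7 (6.85 ± 0.19 in total tumour and 4.19 ± 0.84 in spleen, SD, n = 3) and Tyrobp (4.97 ± 0.46 and 4.06 ± 0.66), so the sum says little of the markers that fell. Klra1 was not well above background on any spleen array and met the filter through tumour arrays alone, so its rise is conditioned on a high tumour level. Of 6 tested mast cell markers 3 rose in total tumour, with sums of 0.71 to 4.03 in IL10+, 0.78 to 1.64 in IL10- and 1.16 to 3.35 in total tumour, against 0.29 to 0.82 in spleen Treg. Mcpt4, a mast cell protease, read -0.60 ± 1.44 in total tumour and was not well above background on any spleen array, and Hdc read -1.37 ± 0.20 in total tumour and -2.57 ± 0.97 in spleen Treg. Cpa3, Tpsb2 and Fcer1a were not well above background on any spleen array either. With Mcpt4 they met the filter through tumour arrays alone, so their tests against spleen are conditioned on a high tumour level.

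Markers of cells that the gate would remove were also present. Beside their counts, 22.0% of all features rose and 20.3% fell in total tumour against spleen, or 18.8% and 16.2% without spleen replicate 2. Macrophage and monocyte markers rose in 9 of 9 in total tumour, with sums of 446 to 763 in IL10+, 363 to 530 in IL10- and 314 to 597 in total tumour, against 34.6 to 85.3 in spleen Treg, and Apoe and Lyz2 rose by 3.03 and 4.001. Fibroblast markers rose in 6 of 6, with sums of 113 to 265, 84.4 to 214 and 88.3 to 120 in the same tumour groups against 0.29 to 3.05 in spleen, and Dcn and Col3a1, each well above background on 1 of 3 spleen arrays, averaged 5.75 and 5.33 in total tumour Treg. Pdgfra and Lum were well above background on no spleen array and met the filter through tumour arrays alone, so their rise is conditioned on a high tumour level. With spleen replicate 2 left out, the counts were 7 of 9 macrophage and 5 of 6 fibroblast markers. B cell markers fell in 5 of 5, with sums of 12.7 to 28.2, 17.9 to 35.0 and 28.8 to 38.3 against 97.3 to 221. Ighm fell by 1.90. Cd79a was not well above background on any tumour array and met the filter through spleen arrays alone, so its fall is conditioned on a high spleen level. Neutrophil sums were 3.43 to 5.28 in total tumour and 0.76 to 2.80 in spleen, where Mmp9 rose by 2.52 and S100a9 differed by 0.25. Epithelial sums were 2.12 to 3.25 in total tumour and 0.43 to 2.03 in spleen, where Krt18, well above background on 2 of 3 spleen arrays, rose by 2.36 (1.35 without spleen replicate 2) and Epcam differed by 0.80 (0.066 without it). The Treg sum was 489 to 709 in total tumour and 48.1 to 262 in spleen, and Tnfrsf18 and Tnfrsf4 rose by 1.84 and 2.70, or by 1.16 and 1.35 without spleen replicate 2. On that array Tnfrsf4 read 2.86, against 6.93 and 6.88 on the other spleen arrays. The part of RNA from these cells in the differences of the granzyme and effector genes was not tested.

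The 5 genes whose profile over the 12 arrays lay nearest to that of Gzmb, among 12620 named genes, were Areg, Sv2c, Col16a1, Rtkn and P3h3. Nearness was the root mean square difference of profiles centred on their means, and it was 0.76, 0.79, 0.86, 0.93 and 0.93 log2 units, where the median gene stood at 3.08. Areg, amphiregulin, a growth factor of the EGF family, averaged 2.96 in IL10+, 2.56 in IL10- and 2.91 in total tumour, against -2.60 in spleen Treg. All 5 had a lower mean in spleen than in each tumour group, which follows from choosing them by nearness to Gzmb. The spleen means of Sv2c, Rtkn and P3h3 (-5.45, -4.95 and -4.82) lay under the lowest signal well above background on the spleen arrays (-4.37 to -3.74). Arrays of 1 group share tissue, gate and in part slide.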

How the data were processed

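The authors' deposited scanner files hold a processed signal intensity for each spot, which per the file headers came from Feature Extraction 9.5.3.1, on probes placed on mm8. The authors' deposited value table holds log10 values, as correlation with log10 of the intensity shows (Pearson r at least 0.995 on every array). The median of a column is 1.33, genes are not centred, and the sources used here do not give the normalization. It served as an alternative.

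Control spots and spots marked as outliers were left out, and spots of a probe were averaged. Probes were named by accession, symbol or synonym through RefSeq (GRCm38.p6). Features were the highest probe of each named gene and every unnamed probe, if well above background on at least 3 arrays (15541 features, 13458 of them named genes). Levels were log2 intensity minus the 75th percentile of the array. All 12 arrays were fitted together in limma 3.58.1 (R 4.3.3, statmod 1.5.0, data.table version 1.17.8; lmFit and eBayes, two-sided), with Benjamini-Hochberg adjustment within each of 6 comparisons and a threshold of 0.05. Python 3.11.15 with matplotlib 3.10.9 made the figures. The fit was tested on simulated data.

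Alternatives were normexp (offset 50), quantile normalization, median scaling, the value table, other filters, all probes, only the compared arrays, slide, scan day and replicate blocks, and leaving out each array. Scan day was added after seeing the data. The members and lists were chosen with earlier results of these data known. The 10 genes are all named. Of each pathway list the 3 smallest p in total tumour against spleen and the 2 smallest in IL10+ against IL10- are named, of each cell type list the 2 of highest signal, and 5 nearest profiles to Gzmb. A few genes picked by these rules are not reported here. Other names were chosen after their values were seen.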

Additional observations from a re-analysis of the deposited data

How the results depend on the processing

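Over 24 alternatives, 1197 of 1296 values of single genes kept their direction and their side of the threshold, 32 lost it, 25 gained it and 42 changed sign. The count of genes that passed became 2 with normexp in total tumour against spleen (5 as reported), 3 with normexp and 1 with slide as a fixed block in IL10+ against spleen (6) and 1 with that block in IL10- against spleen (4). Every other count stayed within 1.5 times the reported one, though IL10+ against spleen fell to 4 on the compared arrays alone (Gzma and Srgn lost) and to 4 with scan day (Gzma, Srgn and Serpinb6b lost, Gzmm passing as lower). Leaving out 1 array gave 5 to 7 in total tumour, 5 to 7 in IL10+ and 4 to 6 in IL10- against spleen, and 0 in the comparisons among tumour groups. With slide or scan day as a fixed block, differences of IL10+ and IL10- from spleen rest on single arrays, so the counts with these blocks are weak checks. Where signs changed, the cause was not tested. With normexp, IL10+ against IL10- gave -0.29 for Gzmb, -0.66 for Gzmc and -1.15 for Srgn. Normexp gave 0.63 for Gzmm, -0.40 for Srgn and -0.63 for Serpinb6b in IL10+ against spleen, and -0.39 for Prf1 in IL10+ against total. It gave -0.085 for Gzmm and 0.029 for Serpinb6b in IL10- against total. With quantile normalization Gzmb was 0.039 in IL10+ against total and Gzmm -0.17 in IL10- against total, and with the value table they were 0.10 and -0.18. With slide as a fixed block Gzmc was -0.089 in IL10+ against IL10-, Fasl -0.83 in IL10+ against spleen and Prf1 -0.97 in IL10- against spleen. The same block gave Gzmm -0.58 and Prf1 -0.12 in IL10+ against total and Gzmm -1.22 in IL10- against total (-0.050 with slide as a random block). With scan day Gzmc was -0.0060 in IL10+ against IL10-, Fasl -0.47 in IL10+ against spleen, and Prf1 -0.81 and Srgn -0.10 in IL10- against spleen. Scan day gave Gzmm -0.51 and Prf1 -0.14 in IL10+ against total and Gzmm -1.53 in IL10- against total. Leaving out 1 array changed signs within these ranges: Srgn -0.066 to 0.40 and Gzmc -0.0060 to 0.50 in IL10+ against IL10-, Gzma -0.31 to 0.94 in total against spleen, Fasl -0.17 to 1.16 in IL10+ against spleen, Prf1 -0.16 to 1.07 and Fasl -0.91 to 0.42 in IL10- against spleen, Gzmb -0.31 to 0.14 in IL10+ against total and Gzmm -0.15 to 0.42 in IL10- against total. The replicate block left 5 genes passing in IL10+ against spleen, Srgn not passing (adjusted p = 0.0540), and changed no other count. Same-numbered arrays of different groups correlated at -0.24 to 0.43 in their deviations. For IL10+ with IL10- the correlation was 0.41, 0.43 and -0.24 for replicates 1, 2 and 3. There 4 of 6 arrays correlated best with their own number, so a shared source is possible. The labels do not say whether equal numbers share tumours, and the numbers were not taken as pairs. A fit that pairs only IL10+ with IL10- was not run. Precision is limited by 3 arrays a group, by a spread shared with the spleen arrays and, for Gzmm and Gzmk, by signal near background.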
